A study of Mus musculus with 12 samples.

Results

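The second numbered step along the dissected neural tube, from the piece labelled part 2 to the piece labelled part 3, was examined. It rests on 4 arrays, both arrays of each piece, of the 12 arrays in the series. The tissue was posterior neural tube of CD1 mouse embryos, an outbred stock, at embryonic day 9.5. Embryos were held in pancreatin, a mixture of digestive enzymes, at 2 mg per ml for 1 min, and the tube was then cleaned of neighbouring layers with needles and cut into 6 pieces. All groups shared this handling, and no piece received any other treatment. RNA was amplified before it was labelled, and each array is 1 piece of 1 embryo, with 2 embryos in all. Replicate numbers are written here as embryo 1 and embryo 2, and part 2 and part 3 of the same number were paired. The labels state neither which part number is caudal nor that the numbers follow position, so the pieces are named by number only.

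The posterior neural tube grows from a pool of progenitors near the tail end of the embryo. Fibroblast growth factor (FGF) and Wnt signals keep these cells undifferentiated, and retinoic acid, made in the somites beside the tube and destroyed by Cyp26 enzymes near the tail, opposes them. Cells that leave the pool switch on neural progenitor factors and, under Hedgehog signals from below and BMP and Wnt signals from above, factors that mark dorsal and ventral positions. Comparing pieces of successive number asks which genes differ between them.

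Tissue left on the pieces was checked before any gene was compared. The neural factor Sox2, a SoxB1 transcription factor chosen here for this check, gave signals of 820 and 981 in part 2 and 1207 and 1558 in part 3 (embryo 1 first, as throughout). Signals are the deposited array intensities in arbitrary units, with a median of 17.7 over all arrays. Several somite, notochord and presomitic markers were far higher on the part 2 array of embryo 1 than on the other arrays of parts 2 and 3. Foxc2, a forkhead factor of somites, read 185 on it, against 1.15 on the part 2 array of embryo 2 and 0.702 and 0.524 in part 3. Shh, the Hedgehog ligand made by notochord and floor plate, read 504 and 25.3 in part 2 and 27.4 and 31.1 in part 3. Tbx6, a T-box factor of presomitic mesoderm, read 272 and 33.7 in part 2 and 7.54 and 13.2 in part 3. Outside this comparison, Tbx6 read 518 and 188 in part 1, so high values were not confined to that array. In each case 1 of the 4 arrays stood far above the other three.

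Over 58 tested markers of other tissues, 20 were more than 2-fold higher on the part 2 array of embryo 1 than on that of embryo 2, which is 34.5% against 2.58% of all genes. These included 7 of 10 presomitic mesoderm, 4 of 5 somite and 3 of 4 notochord markers. In the other direction 10 markers (17.2%) were more than 2-fold higher on the part 2 array of embryo 2, against 2.18% of all genes, and 6 of them were surface ectoderm and 4 neural crest markers. Cdh1, the epithelial cadherin, read 16.1 and 57.6 in part 2, and Esrp1, an epithelial splicing factor, read 5.72 and 51.0. In part 3, 5 of the 58 markers (8.62%) were more than 2-fold higher on the array of embryo 1, against 2.34% of all genes. On that of embryo 2 they were 6 (10.3%), against 1.78% of all genes. These shares were smaller than in part 2 but also above those of all genes. The summed signal of the presomitic list was 4427 and 2246 in part 2 and 838 and 815 in part 3. Rspo3 alone gave 1612 and 1445 of this in part 2 and 345 and 320 in part 3. That of the somite list was 1214 and 367 in part 2 and 524 and 498 in part 3. That of the notochord list was 706 and 85.6 in part 2 and 124 and 79.7 in part 3. Of the somite list, 7 members, Meox2, Pax1, Pax9 and Twist1 among them, were below the array median on all 4 arrays. The summed blood signal was 6220 and 2878 in part 2 and 1359 and 5629 in part 3, so that it was lower in part 3 in embryo 1 and higher in embryo 2. Embryonic globin Hbb-bh1 read 1709 and 402 in part 2 and 314 and 1425 in part 3. Of 12 endothelial markers 7 were below the array median on all 4 arrays, and Pecam1 and Tie1 were under 4.43 on each. Others were brighter, such as Etv2, an ETS factor of early endothelium, at 65.3 and 51.1 in part 2 and 70.6 and 43.5 in part 3. Egfl7, a secreted endothelial protein, read 37.4 and 47.4 in part 2 and 73.8 and 37.96 in part 3, and the VEGF receptor gene Kdr read 21.1 and 20.2 in part 2 and 23.1 and 7.98 in part 3. These genes overlapped between the pieces, while Aplnr, the apelin receptor that mesoderm also carries, read 1493 and 24.2 in part 2 and 13.9 and 10.2 in part 3.

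**Figure D1:**
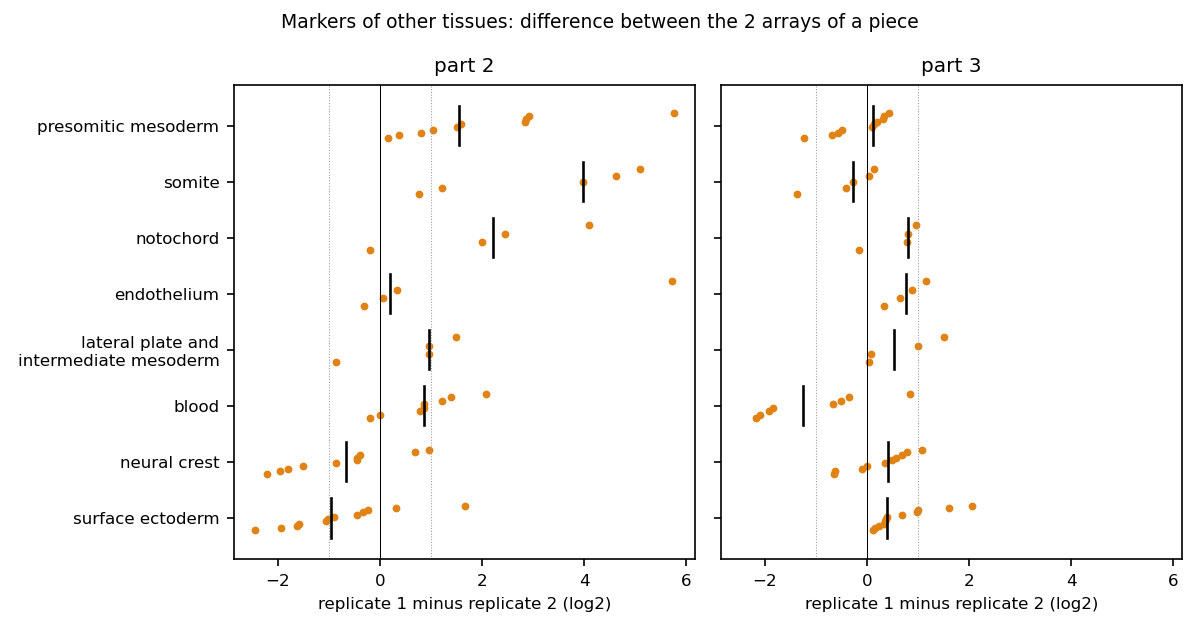
Each point is 1 tested marker of a tissue other than neural tube, placed by its log2 difference between the array of embryo 1 and that of embryo 2 within part 2 (left) and within part 3 (right), with the list median as a black bar and 2-fold differences as dotted lines. In part 2 the presomitic, somite and notochord markers lie to the right (7 of 10, 4 of 5 and 3 of 4 past 2-fold) and the surface ectoderm markers to the left (6 of 12 past 2-fold), while in part 3 most points lie inside the dotted lines.

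The 4 arrays were otherwise alike in scale, with medians between 17.7 and 19.1 and correlations across genes between 0.966 and 0.979. Genes are not independent replicates, and these correlations describe the arrays. The ratio of 3′ to 5′ actin probe signal, which grows as copied RNA gets shorter, was 11.1 in part 2 and 14.7 in part 3 of embryo 1, and 6.20 and 5.24 in embryo 2. This ratio thus moved in opposite directions in the embryos between the pieces.

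Between the pieces 26 of 12089 genes changed (0.215%, adjusted p under 0.05, limma with embryo as a block). Of these, 12 were higher (0.0993%) and 14 lower (0.116%) in part 3. The genes that rose included transcription factors of neural progenitors, Rfx4, Olig3, Irx3 and Sox21, together with secreted proteins and surface proteins. Those that fell included the presomitic clock gene Hes7, the Wnt pathway genes Rspo3 and Wnt5b, the ETS factor Ets2 and several surface receptors. The 26 were chosen by a test on these arrays, so that their shared sign in both embryos and the gap between their pieces follow from the choice. Over all genes, arrays did not overlap for 1793 genes with part 3 higher (14.8%) and 1758 with part 3 lower (14.5%). The median difference over all genes was -0.0032 on the log2 scale. Differences here are of log2(signal + 4.43), which understates changes of dim genes. In such bulk pieces, fewer cells of a type and less RNA per cell cannot be told apart.

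Leaving out the part 2 array of embryo 1 left 13 calls, of which 10 were among the 26. These were Ets2, Cd40, Lypd6b and Wnt5b among the genes that fell, and Klb, Ndnf, Irx3, Gdf10, Olig3 and Rfx4 among those that rose. Leaving out the part 2 array of embryo 2 left 21 calls, with 10 of the 26 among them, and leaving out either part 3 array left 0 (limma, with 585 genes at an unadjusted p under 0.05 without that of embryo 1 and 758 without that of embryo 2, against 776 with all arrays). The genes kept without one or the other part 2 array were not the same set. Lypd6b, Wnt5b and Gdf10 were kept only without that of embryo 1. Hes7, Tex264 and Cdh6 were kept only without that of embryo 2. Within embryo 2 the 14 lower genes differed by 1.05 to 3.12 on the log2 scale, and within embryo 1 by 0.93 to 3.41. The part 2 array of embryo 2 had low somite and notochord sums, but its presomitic sum was 2246 against 815 in part 3 and its surface ectoderm sum 1048 against 311. The presomitic list holds 2 of the 14 lower genes, Rspo3 and Hes7. They gave 1445 and 465 of the 2246 in part 2, and 320 and 103 of the 815 in part 3. The presomitic sum is therefore not separate from the genes chosen. The higher genes differed by 1.46 to 2.81 in embryo 1 and by 1.22 to 3.22 in embryo 2. The genes were chosen on these arrays of both embryos, so these ranges describe them and are no separate test.

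**Figure D2:**
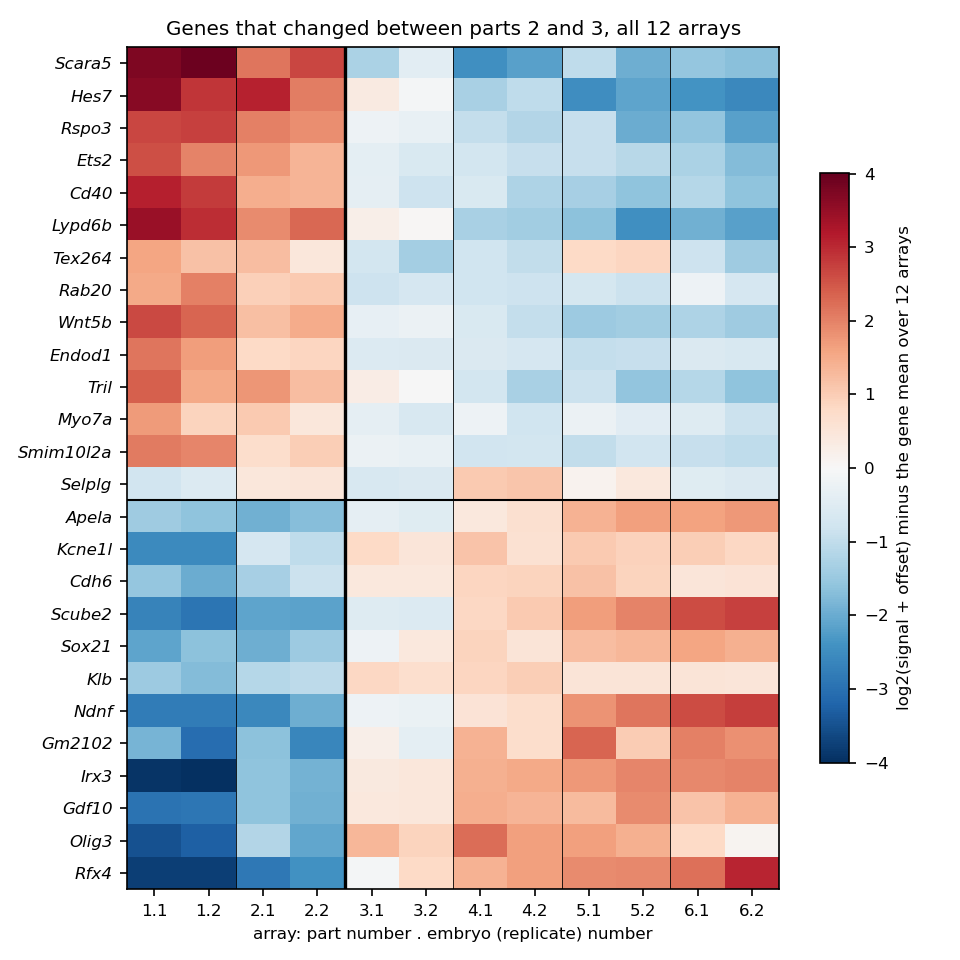
Rows are the 26 genes that changed between parts 2 and 3 and columns are all 12 arrays, named by part and embryo, coloured by log2(signal + 4.43) minus the gene's mean over the arrays. The 14 genes above the horizontal line were lower in part 3 and the 12 below it higher, and the thick vertical line marks the step, which was used to choose the rows.

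Among the genes that fell, those of Wnt signalling and the presomitic clock come first. Hes7, a basic helix-loop-helix repressor that cycles with the segmentation clock, gave signals of 960 and 465 in part 2 and 142 and 103 in part 3. Both part 2 arrays lay above both part 3 arrays, and the log2 difference was -2.42 ± 0.34 (SE, n = 2 embryos, limma adjusted p = 0.0413). Hes7 was 1 of the markers more than 2-fold higher on the part 2 array of embryo 1, and its adjusted p was 0.221 without that array, with a difference of -1.97. Rspo3, a secreted R-spondin that strengthens Wnt signalling by sparing Frizzled receptors from removal, read 1612 and 1445 in part 2 and 345 and 320 in part 3. The part 2 arrays of the embryos were close to each other, and the difference was -2.19 ± 0.26 (adjusted p = 0.0178, and 0.109 without the part 2 array of embryo 1). Wnt5b, a ligand of mostly non-canonical Wnt signalling, read 370 and 452 in part 2 and 124 and 133 in part 3. It fell by 1.64 ± 0.19 (adjusted p = 0.0166), and the array of embryo 2 was the higher of the part 2 pair. Without that array the Wnt5b difference was -1.43, and the call was lost.

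Ets2, an ETS transcription factor that responds to the Ras and MAP kinase cascade, read 2030 and 1558 in part 2 and 456 and 393 in part 3. It fell by 2.06 ± 0.16 (adjusted p = 0.00361). Among surface proteins, Cd40, a receptor of the tumour necrosis factor family best known on immune cells, read 125 and 117 in part 2 and 32.3 and 22.1 in part 3. Its difference was -2.002 ± 0.166 (adjusted p = 0.00361). The embryos gave nearly the same part 2 level for it, and the pieces were well separated. Scara5, a scavenger receptor that takes up ferritin, read 147 and 214 in part 2 and 9.78 and 20.7 in part 3. It had the largest called fall, -3.27 ± 0.36 (adjusted p = 0.0144), although its adjusted p was 0.0623 without the part 2 array of embryo 1 and 0.0759 without that of embryo 2. Lypd6b, a membrane-anchored protein of the Ly6 family, read 214 and 282 in part 2 and 64.8 and 56.3 in part 3, a fall of 1.95 ± 0.26 (adjusted p = 0.0292). Without the part 2 array of embryo 2 the Lypd6b difference was -1.57, and the call was lost.

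Of the remaining genes that fell, Endod1, which holds an endonuclease domain, read 85.5 and 89.7 in part 2 and 31.3 and 30.8 in part 3. Tril, a leucine-rich partner of Toll-like receptors, read 584 and 398 in part 2 and 208 and 167 in part 3. Myo7a, an unconventional myosin needed in the hair cells of the ear, read 47.9 and 29.9 in part 2 and 15.3 and 11.7 in part 3. In all of these the pieces did not overlap, with differences of -1.37 for Endod1, -1.35 for Tril and -1.25 for Myo7a. Without the embryo as a block the adjusted p of Tril was 0.470 and that of Myo7a 0.434. Tex264, an adaptor for the breakdown of endoplasmic reticulum, read 34.7 and 18.1 in part 2 and 5.57 and 2.07 in part 3. Rab20, a small GTPase of vesicle traffic, read 13.02 and 14.4 in part 2 and 0.716 and 1.31 in part 3. Rab20 was below the array median of 17.7 already in part 2, and both genes were close to the floor of the array in part 3, so their falls of 1.88 and 1.74 depend on the offset of 4.43. Smim10l2a, a small membrane protein, read 99.8 and 122 in part 2 and 50.3 and 48.2 in part 3, and fell by 1.097 (adjusted p = 0.0495). Its call was lost whichever of the 12 arrays was left out. Selplg, the selectin ligand of white blood cells, read 12.7 and 12.9 in part 2 and 3.59 and 3.94 in part 3, all under the array median, and fell by 1.07 (adjusted p = 0.0417). These last 2 genes lie outside the 12 largest falls and were named after their values were seen.

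The genes that rose include 4 transcription factors of neural progenitors. Rfx4, a winged-helix factor needed for neural tube patterning and cilia, read 5.13 and 8.61 in part 2 and 62.5 and 117 in part 3. It had the largest difference of any gene that rose, 3.01 ± 0.24 (adjusted p = 0.00361), from a part 2 level under the array median. Olig3, a basic helix-loop-helix factor of dorsal progenitors, read 20.6 and 8.85 in part 2 and 137 and 100 in part 3, a rise of 2.74 ± 0.25 (adjusted p = 0.00565). Irx3, an Iroquois homeobox factor of the intermediate tube, read 227 and 183 in part 2 and 915 and 954 in part 3. Its rise of 2.17 ± 0.17 (adjusted p = 0.00361) was large beside the small gap between the embryos in each piece. Sox21, a SoxB2 factor that promotes differentiation of progenitors, read 29.4 and 43.7 in part 2 and 110 and 173 in part 3. It rose by 1.82 ± 0.26 (adjusted p = 0.0417), and the embryos kept their order in both pieces. Its adjusted p was 0.294 without the part 2 array of embryo 1, with a difference of 1.63.

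The other genes that rose are given by role, secreted proteins among the first. Gdf10, a BMP family ligand also called BMP3b, read 33.1 and 25.3 in part 2 and 148 and 150 in part 3, and rose by 2.20 ± 0.22 (adjusted p = 0.00976). Without the part 2 array of embryo 2 the Gdf10 difference was 1.95, and the call was lost. Ndnf, a secreted factor first known to support neurons, read 10.4 and 18.3 in part 2 and 72.9 and 69.3 in part 3, and rose by 2.04 ± 0.19 (adjusted p = 0.00565). Klb, the co-receptor through which FGF15 and FGF21 reach FGF receptors, read 10.7 and 11.6 in part 2 and 54.0 and 48.2 in part 3, and rose by 1.83 ± 0.15 (adjusted p = 0.00361). For these genes the part 3 signals of the embryos lay close together. Scube2, which helps release the lipid-bound Hedgehog ligand, read 11.7 and 11.3 in part 2 and 43.6 and 42.9 in part 3, a rise of 1.58 ± 0.17 (adjusted p = 0.0144). Apela, a peptide ligand of the apelin receptor, read 59.9 and 70.6 in part 2 and 186 and 171 in part 3, and rose by 1.39 ± 0.17 (adjusted p = 0.0208). Its receptor gene Aplnr, given above, was high on 1 part 2 array only among the arrays compared, and read 2741 and 632 in part 1. Cdh6, a type II cadherin of dorsal neural tube and neural crest, read 132 and 181 in part 2 and 448 and 444 in part 3, and rose by 1.51 ± 0.21 (adjusted p = 0.0417, and 0.248 without the part 2 array of embryo 1). Kcne1l, an accessory subunit of potassium channels, read 21.3 and 15.7 in part 2 and 66.2 and 53.0 in part 3, a rise of 1.49 ± 0.17 (adjusted p = 0.0166). Gm2102, a predicted gene with no known role, also rose, by 2.05, but its adjusted p was 0.430 without the embryo as a block. Of the 26 genes, 10 have 15 further probe sets above the filter on low signals, and all 15 differed in the direction of the probe set used. Of these 15, 3 passed on their own at an adjusted p under 0.05 over all probe sets (limma), 1 each for Wnt5b, Ets2 and Tril. The difference was smaller than for the probe set used in 14 of them, with differences of 0.24 ± 0.25 for Ndnf, -0.20 for the smallest of Endod1, -0.59 for the smaller of Cd40 and 0.80 for Cdh6.

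**Figure D3:**
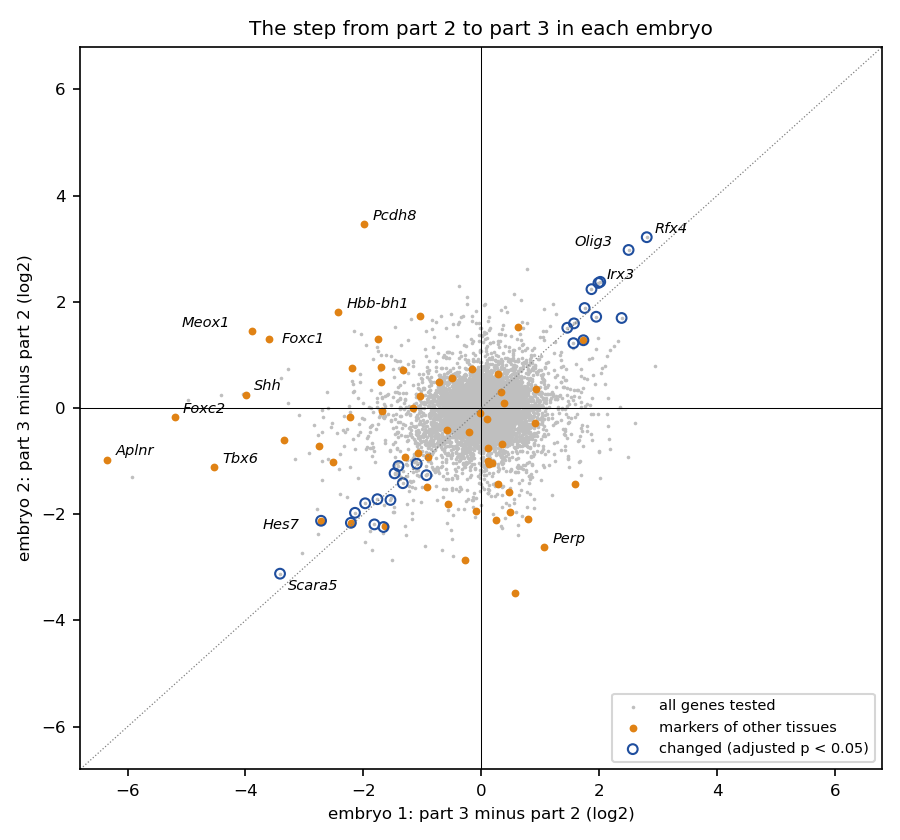
Each point is 1 gene, placed by its part 3 minus part 2 difference (log2) in embryo 1 (x axis) and embryo 2 (y axis), with markers of other tissues in orange and the 26 called genes ringed in blue. The ringed genes lie along the dotted line of equal differences, and many orange markers lie left of it, with large falls in embryo 1 (Aplnr -6.35, Foxc2 -5.20) and small differences in embryo 2 (-0.97 and -0.17).

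The promoters of genes that moved together are shown so that the letters of binding motifs for the pathways named above can be read in place. RefSeq promoter windows of 300 bases (GRCm38.p6, 250 before and 50 after the start) were found for 19 of the 26 genes, 8 that fell and 11 that rose, in 24 windows. Capitals mark every match to 5 searched motifs on either strand: ATCAAAG (TCF/LEF factors of Wnt signalling), ACAATG (SOX factors), CACNAG (the N-box of Hes repressors), CCGGAAG (ETS factors) and AGGTCA (a retinoid receptor half-site). No overlap of motifs occurred in the windows printed. Hes7 and Wnt5b are examples of genes that fell and Rfx4 and Sox21 of genes that rose, and each window printed holds at least 1 match. They do not represent the set, since most windows of genes that fell hold no match. Wnt5b has further windows, not printed, without a match. Rfx4 has a further window, not printed, with an N-box and a retinoid half-site. The Hes7 window is chr11:69120203-69120502 on the plus strand, the Wnt5b window chr6:119449337-119449636 on the minus strand, the Rfx4 window chr10:84755798-84756097 on the plus strand and the Sox21 window chr14:118236981-118237280 on the minus strand.
Hes7: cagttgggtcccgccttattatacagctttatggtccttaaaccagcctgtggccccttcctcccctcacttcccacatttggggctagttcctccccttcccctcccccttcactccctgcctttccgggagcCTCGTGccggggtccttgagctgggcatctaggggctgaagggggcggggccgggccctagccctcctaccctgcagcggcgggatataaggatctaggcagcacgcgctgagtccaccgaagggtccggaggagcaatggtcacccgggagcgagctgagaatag
Wnt5b: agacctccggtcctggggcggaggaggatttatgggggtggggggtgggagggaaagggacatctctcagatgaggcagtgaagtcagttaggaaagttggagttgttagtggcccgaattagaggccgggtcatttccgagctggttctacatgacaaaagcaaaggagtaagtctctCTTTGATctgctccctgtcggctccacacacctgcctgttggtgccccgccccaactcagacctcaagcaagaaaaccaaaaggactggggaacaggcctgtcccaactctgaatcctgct
Rfx4: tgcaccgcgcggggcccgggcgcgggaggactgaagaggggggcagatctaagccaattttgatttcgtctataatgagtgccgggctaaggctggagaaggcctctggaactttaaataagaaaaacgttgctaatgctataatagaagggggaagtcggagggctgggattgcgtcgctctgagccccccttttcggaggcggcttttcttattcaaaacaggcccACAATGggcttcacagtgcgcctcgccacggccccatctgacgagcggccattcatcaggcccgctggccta
Sox21: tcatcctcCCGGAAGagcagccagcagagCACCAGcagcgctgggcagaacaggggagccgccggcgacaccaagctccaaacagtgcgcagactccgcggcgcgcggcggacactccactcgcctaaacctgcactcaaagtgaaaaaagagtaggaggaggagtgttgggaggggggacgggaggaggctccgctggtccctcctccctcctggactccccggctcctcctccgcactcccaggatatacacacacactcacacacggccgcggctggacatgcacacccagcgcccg
The capitals are an N-box on the opposite strand in Hes7, a TCF/LEF match on the opposite strand in Wnt5b, a SOX match in Rfx4, and an ETS match followed by an N-box in Sox21. The TCF/LEF letters occurred in 1 of 12 windows of genes that fell and 0 of 12 of genes that rose, against 3.73% of 32851 promoters. The SOX letters occurred in 1 window of each direction, against 12.6% of all promoters. The N-box occurred in 1 window of genes that fell and 4 of genes that rose, against 42.5%. The ETS letters (8.86% of all promoters) and the retinoid half-site (16.3%) each occurred in 0 windows of genes that fell and 1 of genes that rose. A match describes letters in the window and not binding.

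Lists of pathway genes were then read against these backgrounds. At an unadjusted p under 0.05 the limma fit held 776 of all genes (6.42%). The same level was reached by 4 of 10 caudal progenitor factors, 4 of 9 FGF ligands, 4 of 12 retinoid genes and 5 of 17 Notch genes, each lower in part 3. Neural progenitor factors had 8 higher and 1 lower of 14, ventral and Hedgehog genes 3 higher of 15, neuron genes 2 higher and 3 lower of 13, and adhesion genes 4 in each direction of 30. Presomitic markers had 6 lower of 10 and surface ectoderm 3 lower of 12. The Hox, cell cycle and early embryonic lists and those of notochord, blood, endothelium, endoderm and lateral plate had 0, and each of the others had 1 to 3. Over all genes 0.215% were called, and arrays did not overlap for 14.8% with part 3 higher and 14.5% with part 3 lower. These shares stand beside every list count below. Of 10 tested caudal progenitor factors, 0 were called (limma), and arrays did not overlap for 4, all lower in part 3, with a list median of -0.58. Cyp26a1, the enzyme that destroys retinoic acid, read 1710 and 2358 in part 2 and 247 and 450 in part 3. Its difference of -2.58 ± 0.40 was among the largest falls but missed the threshold (adjusted p = 0.0636, and 0.0449 without the embryo as a block). Cdx1, a caudal homeobox factor, read 18.8 and 13.05 in part 2 and 3.60 and 0.950 in part 3. Evx1, a homeobox factor of the tail end, read 437 and 569 in part 2 and 251 and 248 in part 3 (adjusted p = 0.242 for both genes). All these genes had both part 3 arrays below both part 2 arrays.

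Among 9 FGF ligands 0 were called, with a median of -0.44. Without overlap 4 were lower and 1 higher (14.5% and 14.8% of all genes). Fgf8, the ligand that keeps caudal cells undifferentiated, read 62.2 and 56.7 in part 2 and 21.4 and 20.5 in part 3 (-1.33 ± 0.48, adjusted p = 0.601). Fgf3 read 66.6 and 10.6 in part 2 and 6.53 and 1.47 in part 3, and its part 2 arrays lay far apart. Of 10 FGF response genes 0 were called, and the median was -0.18. Spry4, a feedback inhibitor of FGF receptor signalling, read 75.2 and 134 in part 2 and 17.2 and 23.5 in part 3 (-2.10 ± 0.50, adjusted p = 0.280). Further Spry4 probe sets gave smaller differences, of -0.37 ± 0.29 and -0.46 ± 0.21. The related inhibitor Spry1 was not lower, at 403 and 480 in part 2 and 529 and 542 in part 3. The MAP kinase phosphatase Dusp4 read 747 and 909 in part 2 and 399 and 576 in part 3.

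Of 12 Wnt ligands 1 was called, Wnt5b, and the median was -0.24. Wnt3a, a canonical ligand of the tail bud and roof plate, read 89.3 and 90.6 in part 2 and 14.9 and 25.4 in part 3 (-1.98 ± 0.44, adjusted p = 0.242). Wnt7a went the other way in value, 11.3 and 3.01 in part 2 and 18.6 and 28.4 in part 3. That direction did not hold for another Wnt7a probe set, the one varying most over the arrays, for which the difference was -0.58. Of 13 Wnt targets and feedback genes 0 were called, with a median of -0.46. Sp5, a zinc finger factor induced by Wnt, read 115 and 92.8 in part 2 and 38.5 and 57.8 in part 3, and Lef1, a nuclear partner of beta-catenin, read 435 and 223 in part 2 and 157 and 174 in part 3. Both were lower in part 3 on both arrays without reaching the threshold (adjusted p = 0.345 and 0.820).

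The retinoid list had 0 called of 12, and a median of 0.13. The receptor gene Rarb, itself a retinoic acid target, read 5.53 and 12.1 in part 2 and 1.09 and 3.68 in part 3, all under the array median. Crabp1, a cytoplasmic retinoic acid binding protein, read 135 and 62.7 in part 2 and 28.9 and 44.4 in part 3. The Notch list had 1 called of 17, Hes7, and 9 members lower and 3 higher without overlap (14.5% and 14.8% of all genes). Its median was -0.58, made of -0.89 in embryo 1 and -0.16 in embryo 2. Lfng, a glycosyltransferase that modifies Notch, read 48.6 and 26.1 in part 2 and 3.48 and 14.1 in part 3. Nrarp, a feedback inhibitor of Notch, read 1618 and 394 in part 2 and 315 and 293 in part 3. For Nrarp most of the difference came from the part 2 array of embryo 1, the array with the higher presomitic, somite and notochord sums, and the part of attached tissue in it was not tested.

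**Figure D4:**
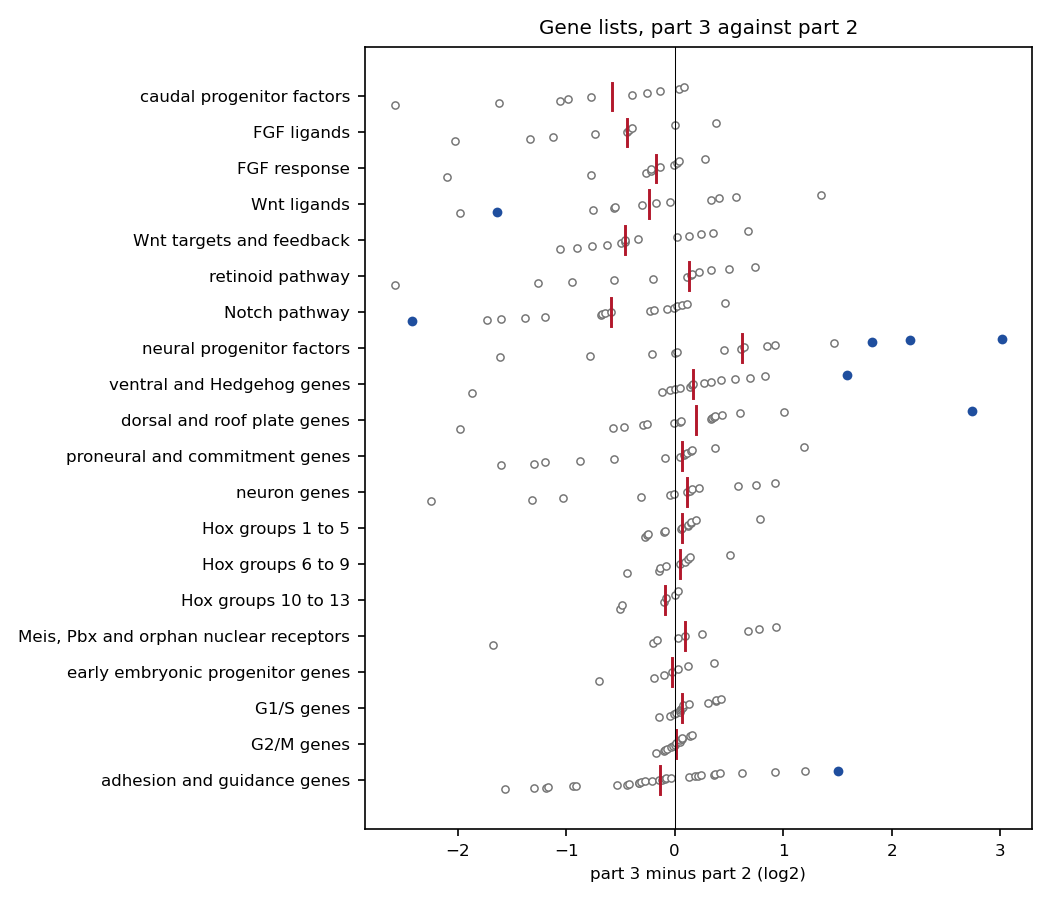
Each row is a pathway list and each point 1 tested gene, placed by its part 3 minus part 2 difference (log2), with called genes filled in blue and the list median as a red bar. Medians run from -0.58 (caudal progenitor factors and Notch pathway) to 0.62 (neural progenitor factors), and the cell cycle and Hox lists lie close to 0.

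Neural progenitor factors had 3 of 14 called higher (Irx3, Rfx4 and Sox21) and 0 lower, with a median of 0.62. Arrays did not overlap for 8 higher and 2 lower members, against 14.8% and 14.5% of all genes. Irx5, the partner of Irx3 in the Iroquois family, read 37.9 and 31.1 in part 2 and 83.9 and 125 in part 3 (1.47 ± 0.27, adjusted p = 0.129). Of 15 ventral and Hedgehog genes 1 was called, Scube2. Their arrays did not overlap for 8, all with part 3 higher, against 14.8% of all genes. The list median was 0.17. Boc, a Hedgehog co-receptor, read 56.5 and 58.7 in part 2 and 110 and 101 in part 3 (0.83 ± 0.20, adjusted p = 0.275). Gli2, a transcription factor of the Hedgehog pathway, read 428 and 467 in part 2 and 710 and 612 in part 3. The ligand gene Shh does not share this order, since its highest value was on the part 2 array of embryo 1.

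Of 16 dorsal and roof plate genes 1 was called, Olig3, with a list median of 0.20. Without overlap 4 members were higher and 5 lower (14.8% and 14.5% of all genes). Pax3, a paired-box factor of the dorsal tube, read 212 and 217 in part 2 and 434 and 435 in part 3. Its difference of 1.00 ± 0.26 had an adjusted p of 0.359, although the embryos gave almost the same value in each piece. The limma test uses a spread estimated over all 6 pieces, not over these 4 arrays alone. Zic5, a zinc finger factor of dorsal tissue, read 465 and 906 in part 2 and 838 and 1169 in part 3, with overlap.

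Proneural and commitment genes had 0 called of 14 and a median of 0.07. Neurog2, a proneural helix-loop-helix factor, read 31.2 and 27.4 in part 2 and 69.4 and 76.0 in part 3 (1.19 ± 0.24, adjusted p = 0.181). Ebf2 and Dll3 were lower in part 3, mainly in embryo 1, with differences of -2.09 and -2.23 there and -0.50 and -0.16 in embryo 2. Neuron genes had 0 called of 13, with 3 higher and 4 lower without overlap (14.8% and 14.5% of all genes). Mnx1, a homeobox factor known from motor neurons and notochord, read 83.3 and 88.8 in part 2 and 17.99 and 11.8 in part 3 (-2.25 ± 0.36, adjusted p = 0.0738). Gad1, the enzyme that makes the transmitter GABA, read 813 and 544 in part 2 and 302 and 231 in part 3 (-1.32 ± 0.25, adjusted p = 0.147). Cntn2, an axonal adhesion molecule of early neurons, read 13.2 and 16.5 in part 2 and 32.9 and 31.2 in part 3. Members of the neuron list thus lay on both sides.

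Hox genes, which specify position along the trunk, gave small differences between these pieces. Of 13 genes of groups 1 to 5, 9 of groups 6 to 9 and 6 of groups 10 to 13, 0 were called, and list medians were 0.06, 0.05 and -0.09. Hoxa9 read 4762 and 4625 in part 2 and 4406 and 4075 in part 3, and Hoxb3 read 836 and 834 in part 2 and 944 and 968 in part 3. The widest differences in the Hox lists were 0.78 for Hoxb2 and -0.50 for Hoxd13, both with overlap. Hoxb2 had opposite signs in the embryos, -0.16 in embryo 1 and 1.73 in embryo 2, and Hoxd13 gave -0.16 and -0.84. The list of Meis, Pbx and orphan nuclear receptor genes had 0 called of 9. Nr2f2, the nuclear receptor COUP-TFII, read 51.3 and 36.4 in part 2 and 15.4 and 6.82 in part 3 (-1.67 ± 0.26, adjusted p = 0.0642). Its further probe sets gave smaller falls, of -0.12, -0.32, -0.60 and -0.83. Nr6a1, an orphan nuclear receptor of the growing trunk, went the other way in value, at 78.6 and 57.3 in part 2 and 105 and 134 in part 3. Meis2, a Hox cofactor, read 466 and 150 in part 2 and 395 and 654 in part 3, with overlap.

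Cell cycle genes gave small differences too. Of 15 genes of the G1/S phase and 14 of the G2/M phase 0 were called, and medians were 0.07 and 0.01. For 6 of the G1/S genes the part 3 arrays were both higher, against 14.8% of all genes. The amounts were small, such as 395 and 420 against 527 and 534 for Gins2, a subunit of the replicative helicase complex. Early embryonic progenitor genes had 0 called of 7 and a median of -0.03, with the methyltransferase gene Dnmt3b at 1184 and 1172 in part 2 and 1011 and 1050 in part 3. Of 30 adhesion and guidance genes 1 was called, Cdh6. Nrcam, a neural adhesion molecule of the immunoglobulin family, read 36.0 and 45.5 in part 2 and 98.4 and 98.9 in part 3 (1.20 ± 0.19, adjusted p = 0.0698). Epha1, an Eph receptor tyrosine kinase, read 104 and 136 in part 2 and 54.4 and 65.7 in part 3 (-0.94 ± 0.16, adjusted p = 0.0909).

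The medians of several lists of other tissues differed between the embryos. Even so, 7 of 10 presomitic and 6 of 12 surface ectoderm markers were lower in part 3 in both embryos, against 3066 of all 12089 genes. In both embryos 1 surface ectoderm marker was higher. Arrays did not overlap, with part 3 lower, for 7 presomitic and 5 surface ectoderm markers, against 14.5% of all genes. The presomitic list had 2 of 10 called lower, Hes7 and Rspo3, and a median of -1.46, which was -2.22 in embryo 1 and -0.66 in embryo 2. The somite list had 0 called of 5, and its median was -3.59 in embryo 1 and 0.56 in embryo 2. The notochord list had 0 called of 4, with medians of -1.20 and 0.10, and the blood list 0 of 8, with -1.19 and 0.74. Surface ectoderm had 0 called of 12, with 0.11 in embryo 1 and -1.69 in embryo 2. Krt8, a keratin of simple epithelia, was lower in part 3 in both, at 234 and 276 in part 2 and 72.3 and 55.6 in part 3 (adjusted p = 0.429). The neural crest list had 1 of 10 called, Cdh6, against medians of 0.29 and -0.92, and Ngfr, a neurotrophin receptor, had the opposite sign to Cdh6 in both embryos. Endothelium and lateral plate each had 0 called of 4, with medians of -0.25 and 0.31. Only 1 endoderm gene, Rbp4, was bright enough to test, and it read 80.9 and 76.2 in part 2 and 69.6 and 54.7 in part 3.

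The same genes were then followed through the other pieces. Between parts 1 and 4, which share no array with parts 2 and 3 but enter the same fit, 776 genes were called (6.42%), 400 higher (3.31%) and 376 lower (3.11%) in part 4. Both tests use the same spread estimate for each gene, on which the choice of the 26 also rested. The count that follows is therefore no independent check. Of the 26 genes, 25 were called in the same direction there, 13 of the 14 that fell and all 12 that rose. The exception was Selplg, which read 2.86 and 4.09 in part 1 and 21.2 and 22.6 in part 4, with the higher part 2 and lower part 3 values given above between them. Its values thus alternated from part 1 to part 4, alike in both embryos. Irx3 gave 41.9 and 39.2 in part 1 against 2643 and 2778 in part 6, and Rfx4 gave 0.671 and 0.706 against 318 and 572. Hes7 had its extremes the other way round, 1419 and 834 in part 1 against 17.6 and 14.6 in part 6. Olig3 and Klb were highest in part 4, since Olig3 read 262 and 172 in part 4 and 94.3 and 57.1 in part 6, and Klb read 55.8 and 60.9 in part 4 and 43.1 and 42.5 in part 6. Cyp26a1 gave 2899 and 3217 in part 1 against 51.1 and 45.0 in part 4.

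Members of the pathway lists were also read between parts 1 and 4. Of the caudal progenitor list 4 were lower in part 4, of the FGF ligands 3 were lower and 1 higher, and of the neural progenitor list 8 were higher and 1 lower. Of the ventral and Hedgehog list 9 were higher. Irx3, Rfx4, Sox21 and Scube2, called between parts 2 and 3, are among these. Neurog2 read 0.341 and 2.52 in part 1 and 146 and 98.0 in part 4 (4.43, adjusted p = 5.4e-05), and Meis2 read 81.4 and 37.8 in part 1 and 1054 and 1178 in part 4 (4.22, adjusted p = 0.00400).

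Whether the step from part 2 to part 3 exceeded the flanking steps, those next to it by part number, was tested. The measure was the part 3 minus part 2 difference less the mean of the part 1 to 2 and part 3 to 4 steps. In that limma test 0 of 12089 genes passed (0%), with 427 at an unadjusted p under 0.05 and a smallest adjusted p of 0.0559, for Selplg. No called gene is therefore shown to change more at this step than at the flanking steps. Nr2f2 read 4.66 and 3.02 in part 1 and 161 and 184 in part 6, so that part 3 lay below both part 2 and part 4 (30.7 and 26.7). Its difference from the flanking steps was -3.51 (adjusted p = 0.118). These Nr2f2 values are of the probe set used, and its further probe sets fell less from part 2 to part 3.

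**Figure D5:**
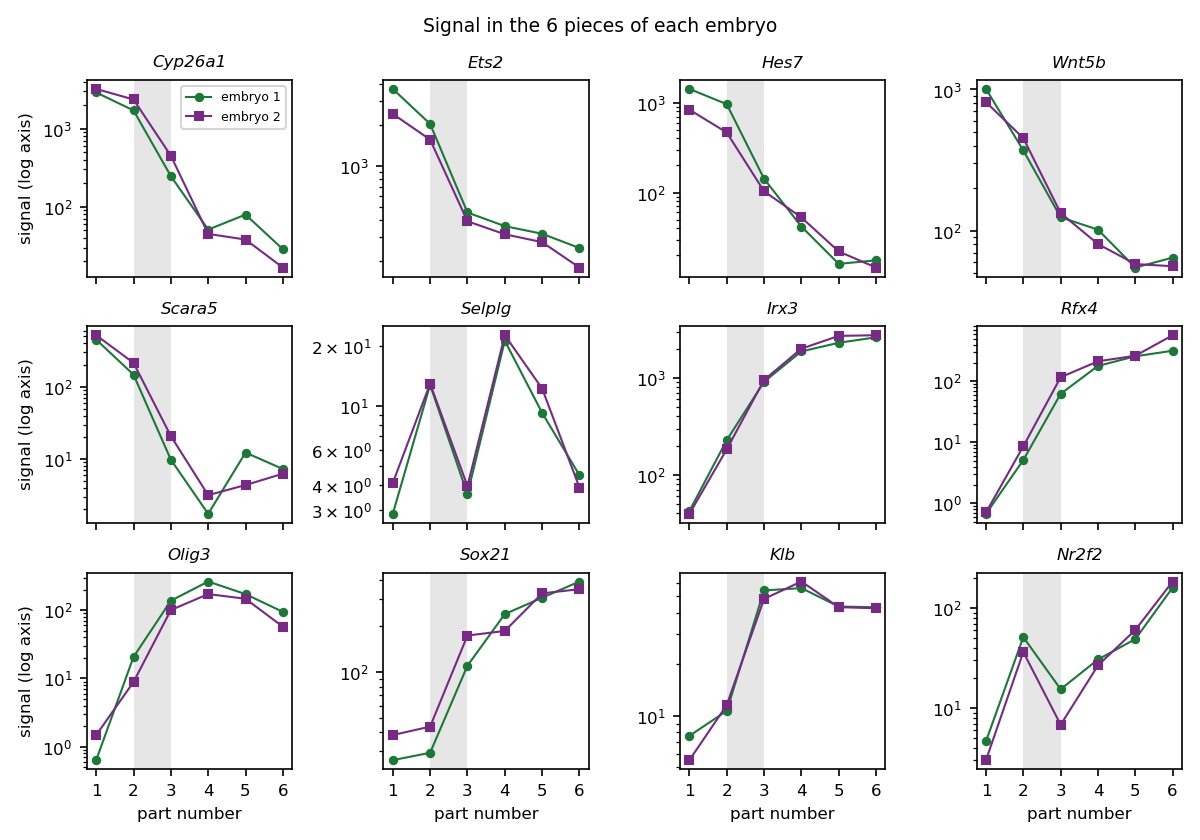
Signal (log axis) of 12 genes in the 6 pieces, with embryo 1 as green circles and embryo 2 as purple squares, lines joining part numbers as a guide, and the compared step shaded. Ets2, Hes7 and Wnt5b are lower in each piece from part 1 to part 4, Irx3, Rfx4 and Sox21 are higher in part 6 than in part 3, and Selplg and Nr2f2 are lower in part 3 than in parts 2 and 4.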

How the data were processed

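RNA of 6 pieces from 2 embryos was measured on 12 one-colour Affymetrix arrays. The deposited values are linear intensities, 1 per probe set, made by the authors with MAS5 per the submitters' processing notes, with the version and settings not given in the sources used here. Their mean, with 2% trimmed at each end, was 100 on every array, so scaling assumes that most genes do not change. Of 45101 probe sets, 34958 had 1 gene symbol in the platform annotation, 932 several and 9211 none, and 34754 were matched to the RefSeq gene table (GRCm38.p6). Probe sets above the array median on at least 2 arrays were kept (21679), and the one with the highest mean stood for each of 12089 genes. The offset of 4.43 is 0.25 of the median signal. Without detection calls, dim signals and background look alike, and 2 arrays per piece limit precision. With limma 3.58.1 in R 4.3.3, log2(signal + 4.43) of all 12 arrays was fitted with a coefficient per piece and the embryo as a block (5 residual and 3.41 prior degrees of freedom), with moderated tests and Benjamini-Hochberg adjustment over all genes. The scripts were tested on simulated data.

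The embryo block rests on the replicate numbers, which the labels pair with 2 embryos only through the series' design text. After piece means were subtracted, arrays sharing a number correlated by 0.183 to 0.335 in all 15 pairs of pieces, and by 0.234 for parts 2 and 3. Named genes are the 12 largest called differences in each direction (predicted genes passed over), the up to 4 members of each list with the smallest p, and the 5 genes with the widest opposite differences between the embryos. These rules gave 124 genes, and the 76 given here with values were picked from them with their values known. Sox2, and other genes outside these rules, were named with their values known. Members and lists were chosen with earlier results of these data known. Listed genes without a probe set of a single symbol are not analysed here. Alternatives tried were the block, offset, filter, normalization, choice of probe set, variance prior, arrays in the fit and leaving out each array.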

Additional observations from a re-analysis of the deposited data

Results flagged for a closer look

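The embryos moved in opposite directions, each past 1 on the log2 scale, for 29 genes between parts 2 and 3, with 17 lower in part 3 in embryo 1 and 12 higher there. The 5 with the widest gap are given. The difference between embryos was not tested for any of them, since each embryo gave 1 array per piece. Pcdh8, a protocadherin of presomitic mesoderm, differed by -1.99 in embryo 1 and 3.47 in embryo 2, and read 607 and 6.83 in part 2 and 150 and 120 in part 3. Meox1, a homeobox factor of somites, differed by -3.88 and 1.45. Foxc1, a forkhead factor of somites, differed by -3.59 and 1.30. The embryonic globin Hbb-bh1 differed by -2.43 and 1.81. All these had the higher part 2 signal on the array of embryo 1. Perp, a junction protein of surface epithelia, differed by 1.07 and -2.61, and had the higher part 2 signal, 89.8 against 26.1, on the array of embryo 2. In part 4, Pcdh8 read 423 and 327, above its part 3 values in both embryos.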

How the results depend on the processing

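The count of 26 genes was between 20 and 25 with no replicate block (23, of which 22 were shared), an offset of 1, quantile normalization or averaged probe sets. It was 46 with an offset equal to the median signal, 57 with a filter at the 75th percentile (7436 genes tested), 52 with a robust variance trend, 16 with the most variable probe set and 8 with no filter (18193 genes tested). It was 0 with arrays of parts 2 and 3 only, with or without the block, a fit with 1 or 2 residual degrees of freedom and 847 or 659 genes at an unadjusted p under 0.05. Tex264 (adjusted p = 0.0801), Tril, Myo7a and Gm2102 were not called without the block. Leaving out 1 array at a time gave 0 to 26 genes, with 0 for either part 3 array, 13 without part 2 of embryo 1, 16 without either part 4 array and 17 without either part 6 array. A piece left with 1 array is then assumed to vary like the others. For part 4 versus part 1 the count of 776 was 436 with no filter and 517 with the most variable probe set, and 250 to 1071 with 1 array left out, lowest without part 4 of embryo 1. The test against flanking steps, with 0 genes, gave 1 with an offset of 1 (Selplg), with averaged probe sets (Selplg), with the 75th percentile filter (Nr2f2) and with the variance trend (Nr2f2), and 0 whichever array was left out. The 20 markers higher on the part 2 array of embryo 1 were 11 of 21 tested with the 75th percentile filter. With the most variable probe set the sign turned for Wnt7a (-0.58). With 1 array left out the sign turned for 27 of the 124 genes, examples of which follow. These were not called and ranged from -3.43 to 1.14 (Foxc1), -3.32 to 0.89 (Meox1), -4.01 to 0.27 (Shh), -3.24 to 2.63 (Hbb-bh1), -1.73 to 3.21 (Pcdh8), -1.91 to 0.37 (Perp), -1.09 to 0.087 (Hoxd13), -0.97 to 0.089 (Kdr), -0.12 to 0.73 (Egfl7) and -0.34 to 0.24 (Etv2). Of 2810 values of 124 genes under these settings, 2532 kept sign and call, 207 lost the call, 30 gained it and 41 changed sign. Only genes called in the main fit could lose the call, and most of the 124 were not called. The share of 207 in 2810 therefore does not measure how stable the calls were. Apart from leaving out 1 array, each of the 26 lost its call in some settings, from 2 of 11 (Ets2) to 8 of 10 (Myo7a). The causes were not tested. Dim genes such as Rab20 and Selplg are limited by the array's floor.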
